A study of Homo sapiens with 6 samples.

Results

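The genes described here encode amino acid and monocarboxylate transporters, taken as every row of the expression table whose HGNC symbol places it in the solute carrier (SLC) families 1, 3, 7, 16, 36, 38 or 43. The rule found 39 genes of the 16792 in the table, and 38 are described here: 4 of SLC1, 1 of SLC3, 11 of SLC7, 9 of SLC16, 2 of SLC36, 8 of SLC38 and 3 of SLC43. The gene table lists 54 genes in these families, and the other 16 are not described here. RNA was sequenced from EndoCBH1 cells, a human pancreatic beta cell line made from fetal pancreas. In 3 libraries, labelled siNT, wild-type cells had been transfected with a non-targeting siRNA. In the other 3, labelled siMNX1 and given the genotype MNX1 knock down, cells had been transfected with siRNA against MNX1, a homeobox transcription factor. The study asked whether MNX1 keeps somatostatin off in beta cells through PERCC1. The labels give triplicates and do not say whether they were separate cultures, so the tests weigh differences against a spread that may be technical. In bulk RNA, fewer cells of a type and less RNA per cell cannot be told apart.

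These families carry most of the amino acids, lactate, pyruvate and ketone bodies that cross the plasma membrane, and some work on lysosomes. Many SLC7 carriers are light chains that reach the surface bound to a heavy chain of SLC3, whereas SLC16A1 and other monocarboxylate carriers travel with the chaperone basigin. In beta cells leucine, glutamine and arginine feed or depolarise the cell and so add to insulin release, and primary beta cells hold SLC16A1 and lactate dehydrogenase A at a low level, which keeps circulating lactate and pyruvate from triggering secretion.

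Levels are the authors' normalized counts, scaled between libraries but not by gene length. Means carry their SD over the 3 libraries of a group (n = 3). Column sums, between 18406479 and 18704645, follow the normalization and are no measure of depth. MNX1 itself had 2039, 2033 and 1988 normalized counts in siNT and 1885, 1708 and 1751 in siMNX1. All siMNX1 libraries were lower, but the log2 fold change of -0.18 missed the threshold (limma, adjusted p = 0.116). PERCC1 rose from 44.3 ± 9.25 to 842 ± 59.1 and SST from 220 ± 16.6 to 858 ± 24.5 (limma, adjusted p = 2.47e-06 and 3.97e-06). All 9 beta cell markers were in the table, with sums of 297342 to 307694 in siNT and 364578 to 379860 in siMNX1, and 2 of them were higher (MAFA and CHGA) and 1 lower (G6PC2). Summed delta cell markers ran from 7434 to 7612 in siNT and from 10098 to 11332 in siMNX1. Of 6 measured, 3 were higher and 1 lower, and those called were SST (already given above), HHEX, RBP4 and CASR. Alpha cell markers summed to 22053 to 23420 in siNT and 19076 to 20528 in siMNX1. Of 6 measured, 1 was higher and 2 lower, and those called were GC, CRYBA2 and RGS4. Limma called 0 of the 1 acinar, 2 ductal and 4 mesenchymal, endothelial or immune markers measured. The sums of these 3 lists were 541 to 617, 1138 to 1306 and 5798 to 6289 in siNT, and 573 to 592, 1331 to 1432 and 5079 to 5686 in siMNX1. The part of these cell types in the results was not tested. On the second principal component, with 20.1% of the variance, siMNX1 replicates 1 and 2 lay at -29.4 and 31.7 and the other 4 libraries between -2.4 and 2.66, so each called member is also given without 1 or the other of these 2 libraries.

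Of the 38 transporter genes described, 3 were higher and 1 was lower with MNX1 siRNA. A gene was called where limma on log2(value + 1) gave a Benjamini-Hochberg adjusted p of at most 0.05 over all genes, and fold changes are on that scale, which understates those of low genes. SLC43A2, SLC16A7 and SLC7A9 rose and SLC16A9 fell, where 1.99% of all genes were called higher and 1.33% lower, 3.32% in all. At an unadjusted p of at most 0.05 there were 12 members, 6 higher and 6 lower, beside 9.81% and 8.56% of all genes, or 18.4% in either direction. Members did not move one way: 19 had a log2 fold change above 0 and 19 below, with a median of -0.0001 against -0.0004 over all genes. The median size of change, without its sign, was 0.19 for members and 0.13 for all genes. Changes were small, and only SLC16A12, which was not called, reached 2-fold.

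**Figure D1:**
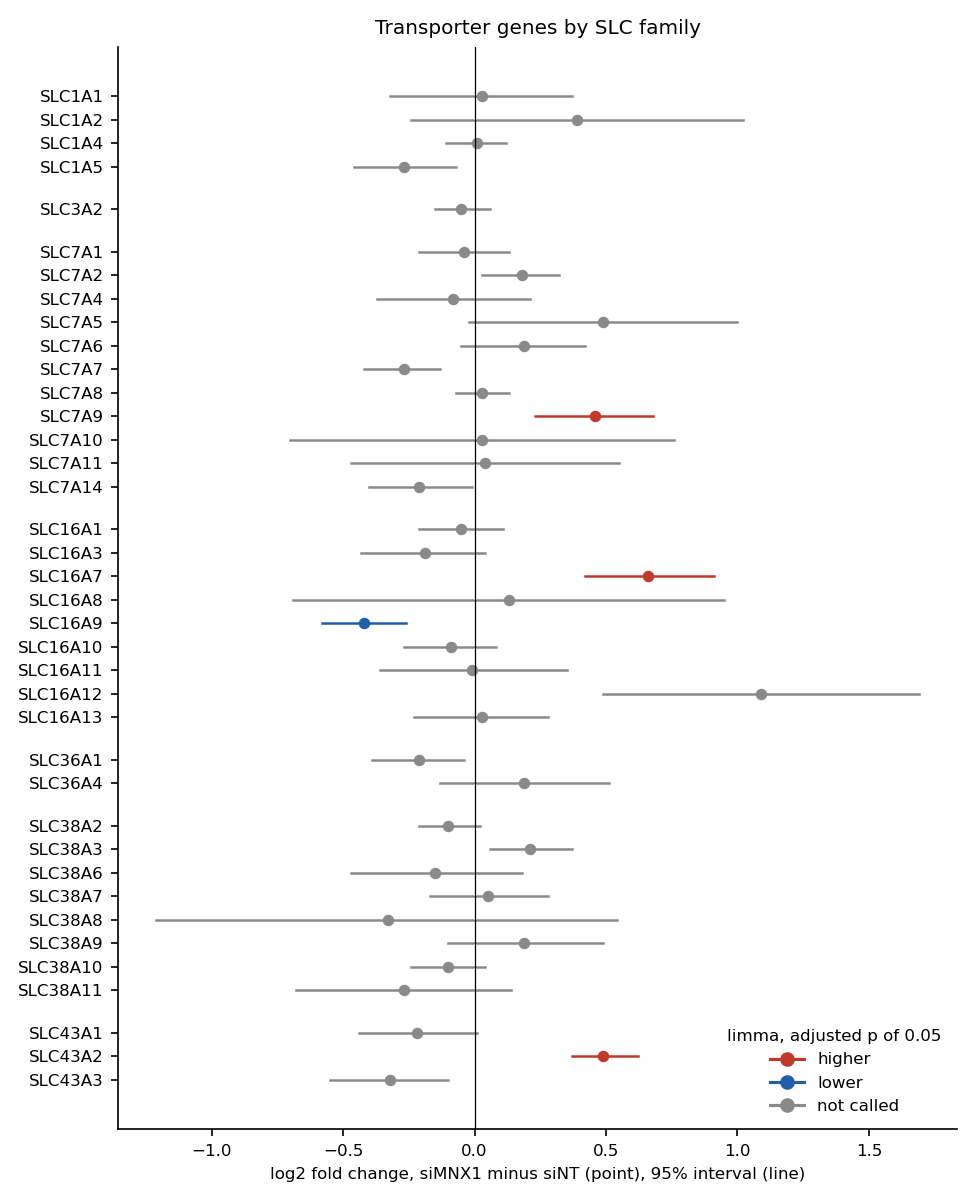
Log2 fold change of each of the 38 transporter genes (x axis, siMNX1 minus siNT, 3 libraries each), grouped by SLC family from top to bottom, with points for the limma estimate and lines for its 95% interval. The 3 genes called higher are red, the 1 called lower is blue, and intervals are widest for genes of low level such as SLC38A8, SLC16A8 and SLC7A10.

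Groups did not overlap for 12 members, 31.6% of them beside 24.0% of all genes. In 5 of these members every siMNX1 library was above every siNT library, beside 12.0% of all genes, and in 7 every siMNX1 library was below, beside 12.1%. The 5 were SLC7A9, SLC16A7, SLC16A12, SLC38A3 and SLC43A2. The 7 were SLC1A5, SLC7A7, SLC7A14, SLC16A9, SLC36A1, SLC38A2 and SLC43A3.

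**Figure D2:**
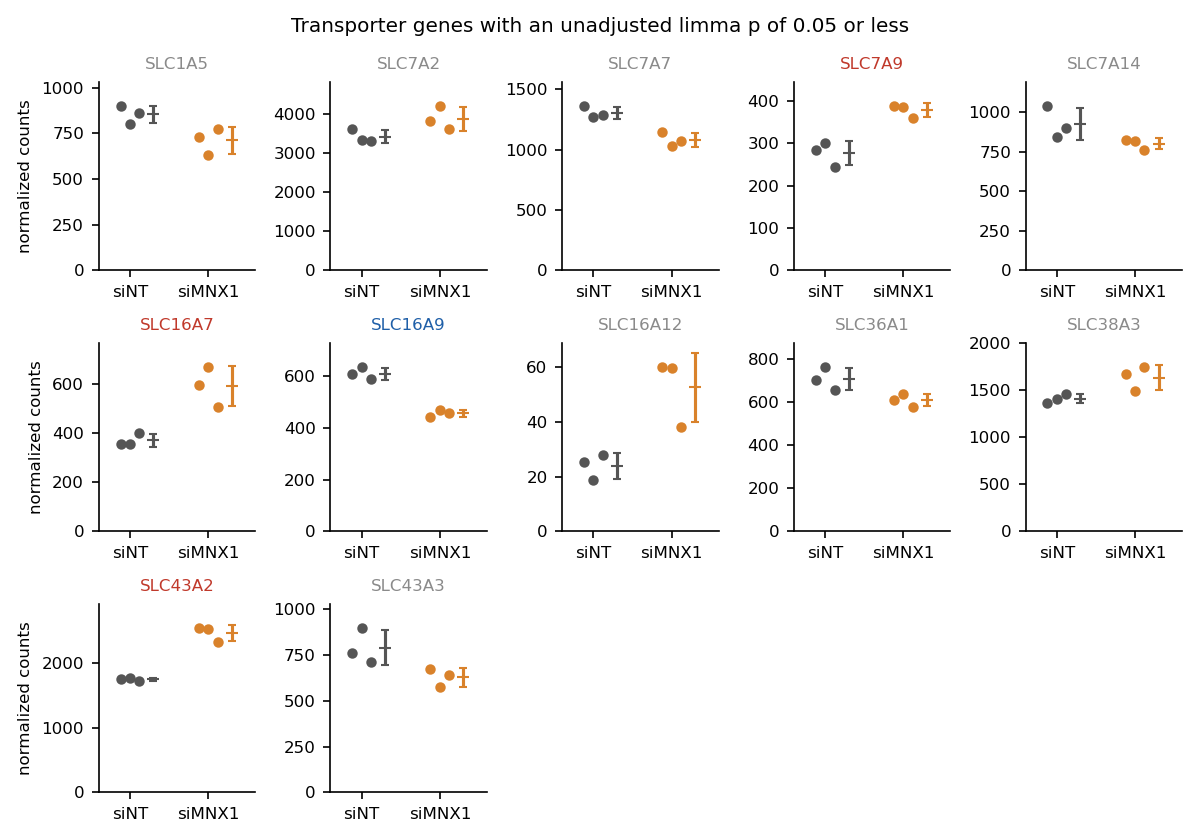
Normalized counts (y axis, from 0) in each library for the 12 transporter genes with an unadjusted limma p of 0.05 or less, with a dot per library and a bar beside it for the mean and SD of 3 libraries. Titles are red for genes called higher, blue for the gene called lower and grey for genes not called; SLC43A2 has no overlap and little spread, while siMNX1 replicate 3 is the lowest of its group for SLC16A7 and SLC16A12.

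The SLC43 family held the clearest difference of the set. SLC43A2 (chromosome 17, 1569267 to 1628886, minus strand, GRCh38) encodes LAT4, a facilitative carrier of leucine, isoleucine, valine, methionine and phenylalanine. It had 1760, 1768 and 1717 normalized counts in siNT and 2542, 2527 and 2321 in siMNX1. Each siMNX1 library was above each siNT library by a margin far wider than the spread inside either group. The log2 fold change was 0.49 (SE 0.055, 95% interval 0.37 to 0.62, limma, adjusted p = 0.00159), or 1.41-fold. That call held under 13 of 13 other settings, with adjusted p from 0.00115 to 0.0147, including 0.0111 without siMNX1 replicate 1 and 0.00459 without siMNX1 replicate 2.

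The other SLC43 members pointed the opposite way without a call. SLC43A1 encodes LAT3, the closest relative of LAT4 in substrate, and had 326, 386 and 349 in siNT and 327, 296 and 289 in siMNX1. The groups met only at siNT replicate 1 and siMNX1 replicate 1, and the log2 fold change was -0.22 (95% interval -0.44 to 0.01, limma, adjusted p = 0.287). SLC43A3, which carries purine nucleobases and not amino acids, had 761, 898 and 712 in siNT and 675, 574 and 642 in siMNX1. Its log2 fold change was -0.32 (limma, adjusted p = 0.119). Both lie on chromosome 11, 57.0 kb apart. Of the exonic bases of SLC43A3, 29.9% also belong to AP000781.2 on the same strand, so the reads of these annotated genes may be shared.

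Of the 11 SLC7 genes, 1 was higher and 0 were lower by limma, beside 1.99% and 1.33% of all genes. At an unadjusted p of 0.05 there were 2 of each, beside 9.81% and 8.56% of all genes. SLC7A9 (chromosome 19, 32830509 to 32869766, minus strand) encodes the light chain of the cystine and dibasic amino acid exchanger of kidney and gut, whose heavy chain is SLC3A1, a gene not analysed here. It had 284, 301 and 245 normalized counts in siNT and 388, 387 and 361 in siMNX1. All siMNX1 libraries were above the siNT range. The log2 fold change was 0.46 (SE 0.102, 95% interval 0.23 to 0.68, limma, adjusted p = 0.044). This call ended whichever library was left out, 6 of 6 cases, with adjusted p from 0.0722 to 0.151 (0.128 without siMNX1 replicate 1 and 0.0907 without siMNX1 replicate 2).

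Of the 6 light chains that pair with SLC3A2, limma called 0. SLC7A7, the y+LAT1 exchanger that exports arginine and lysine against neutral amino acids and sodium, had 1361, 1271 and 1286 in siNT and 1145, 1029 and 1071 in siMNX1. Every siMNX1 library was below every siNT library, with a log2 fold change of -0.27 (95% interval -0.42 to -0.13) that lay just outside the threshold (limma, adjusted p = 0.0525, from 0.0432 to 0.155 over 13 other settings, of which 3 made the call). SLC7A8, the LAT2 exchanger of neutral amino acids, was the member of highest level per kilobase of exon, at 957 ± 41.7 in siNT and 976 ± 5.22 in siMNX1 on that scale. Its log2 fold change was 0.03 (95% interval -0.07 to 0.13, limma, adjusted p = 0.789). SLC7A5, the LAT1 exchanger that supplies leucine to many dividing cells, had only 60.9, 41.5 and 35.2 in siNT and 66.3, 64.2 and 58.9 in siMNX1, and siNT replicate 1 lay inside the siMNX1 range. The log2 fold change of SLC7A5 was 0.49 with a wide interval (-0.02 to 1.00, limma, adjusted p = 0.292). SLC7A11, the cystine importer that supports glutathione synthesis, had 60.2 ± 8.74 and 62.9 ± 15.7. SLC7A10, an exchanger of small neutral amino acids, had 17.0 ± 2.62 and 17.8 ± 4.98. SLC7A6, the relative of SLC7A7 known as y+LAT2, had 677 ± 26.5 and 776 ± 125, with siMNX1 replicate 1 alone at 915. SLC7A6 shares 44.4% of its exonic bases with SLC7A6OS on the opposite strand. As the handling of strand is not given in the sources used here, reads in that shared part may come from either gene.

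Of the 4 genes in the branch of the cationic amino acid carriers, limma called 0. SLC7A2 (CAT2), a carrier of arginine, lysine and ornithine, had 3624, 3352 and 3311 in siNT and 3822, 4208 and 3611 in siMNX1. The groups overlapped by one narrow step, since siNT replicate 1 lay above siMNX1 replicate 3, and the log2 fold change was 0.18 (limma, adjusted p = 0.183). SLC7A1, the widely expressed CAT1, had 4096 ± 234 and 3995 ± 413. SLC7A14, a lysosomal member of the branch, had 1040, 843 and 902 in siNT and 825, 819 and 764 in siMNX1, and its log2 fold change was -0.21 (limma, adjusted p = 0.232). SLC7A4, with no established substrate, had 227 ± 9.16 and 217 ± 36.1.

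SLC16 held 2 of the 4 called genes, with 1 higher and 1 lower out of 9, beside 1.99% and 1.33% of all genes. SLC16A7 (chromosome 12, 59596067 to 59789855, plus strand) encodes MCT2, a proton-coupled carrier of high affinity for pyruvate and lactate. It had 358, 356 and 402 normalized counts in siNT and 599, 670 and 509 in siMNX1. The groups did not overlap, with more spread among siMNX1 libraries than among siNT libraries. The log2 fold change was 0.66 (SE 0.109, 95% interval 0.42 to 0.91, limma, adjusted p = 0.0121), or 1.58-fold. Leaving out siNT replicate 1, siNT replicate 2 or siMNX1 replicate 1 ended it (adjusted p = 0.0506, 0.058 and 0.0536), and without siMNX1 replicate 2 it held (0.0266). Over the 13 other settings the log2 fold change lay between 0.57 and 0.77.

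SLC16A9 (chromosome 10, 59650761 to 59736002, minus strand) encodes MCT9, linked to carnitine transport, and was the only member called lower. It had 608, 635 and 588 in siNT and 441, 469 and 458 in siMNX1. The ranges were tight in both groups and far from each other. The log2 fold change was -0.42 (SE 0.073, 95% interval -0.58 to -0.26, limma, adjusted p = 0.0165). Leaving out siNT replicate 1, 2 or 3 ended the call (adjusted p = 0.0571, 0.0784 and 0.0586), as did leaving out siMNX1 replicate 1 (0.0622), and it held without siMNX1 replicate 2 (0.0268).

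SLC16A12, known as MCT12 and linked to creatine transport, had the largest change of the 38 members at the lowest precision among those with an unadjusted p of 0.05. It had 25.2, 18.7 and 27.9 normalized counts in siNT and 60, 59.8 and 38 in siMNX1. No siMNX1 library was within the siNT range. The log2 fold change was 1.09 (SE 0.267, 95% interval 0.49 to 1.69), short of the threshold (limma, adjusted p = 0.0599). It passed without siMNX1 replicate 3 (adjusted p = 0.0494, the lowest of a range up to 0.174), at a log2 fold change between 0.93 and 1.31 over the settings run.

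For the widely expressed lactate carriers no call was made. SLC16A1, the MCT1 carrier, had 2075, 2077 and 1882 in siNT and 2098, 1965 and 1782 in siMNX1, overlapping throughout, with a log2 fold change of -0.05 (95% interval -0.21 to 0.11, limma, adjusted p = 0.776). SLC16A3, the MCT4 carrier that exports lactate from glycolytic cells, had 785, 598 and 619 in siNT and 598, 549 and 589 in siMNX1 (log2 fold change -0.19, limma, adjusted p = 0.368). SLC16A8 (MCT3), a carrier of retinal pigment epithelium, had 18 ± 5.33 and 20 ± 7.38. SLC16A10, a carrier of aromatic amino acids, had 1108 ± 96.2 and 1039 ± 60.2. SLC16A11 and SLC16A13 lie 1.51 kb apart on chromosome 17 at a locus linked to type 2 diabetes. SLC16A11 had 92.8 ± 2.08 and 93.0 ± 14.2 normalized counts and SLC16A13 had 286 ± 25.6 and 292 ± 34.9, with log2 fold changes of -0.01 and 0.03.

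To show the make-up of carriers with shared substrates, levels per kilobase of exon were summed in 2 sets chosen after their values were seen, and no test was made. Among the large neutral amino acid carriers SLC7A5, SLC7A8, SLC43A1 and SLC43A2, the share of SLC43A2 was 14.1%, 13.2% and 13.0% in siNT and 18.2%, 18.1% and 16.9% in siMNX1. That of SLC7A8 was 77.7% ± 0.78 and 74.6% ± 1.05, so SLC7A8 made up most of this set in every library. Among MCT1 to MCT4, SLC16A7 held 5.61% ± 0.712 in siNT and 8.96% ± 0.943 in siMNX1, beside 77.6% ± 1.54 and 75.8% ± 1.42 for SLC16A1. Exon length moves these shares: with the longest annotated transcript in place of all exons, the share of SLC43A2 was 12.5% and 16.6%, that of SLC16A7 4.97% and 8.03%, and that of SLC16A3 21.6% and 19.2% in place of 15.2% and 13.3%.

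**Figure D3:**
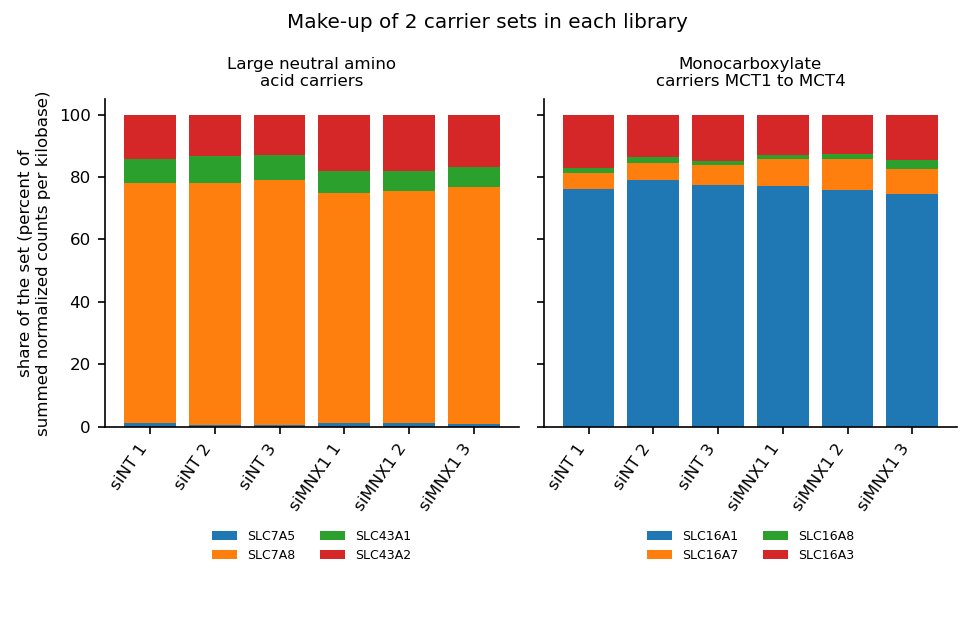
Share of each gene (y axis, percent of the summed normalized counts per kilobase of exon) in 2 carrier sets, with a stacked bar per library and a colour per gene. SLC7A8 and SLC16A1 fill most of their sets in all 6 libraries, and the SLC43A2 part spans 13.0% to 14.1% in siNT and 16.9% to 18.2% in siMNX1.

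SLC1, SLC3, SLC36 and SLC38 together gave 0 calls by limma over 15 genes, where 3.32% of all genes were called. An unadjusted p of 0.05 or less was found for 3 of the 15 (SLC1A5, SLC36A1 and SLC38A3), beside 18.4% of all genes. SLC1A5, the ASCT2 exchanger that brings in glutamine, had 899, 803 and 860 in siNT and 731, 631 and 775 in siMNX1. All siMNX1 libraries were below the siNT range, with a log2 fold change of -0.27 (95% interval -0.46 to -0.07, limma, adjusted p = 0.149). AC008622.2 on the opposite strand covers 23.4% of its exonic bases. SLC1A4, the ASCT1 exchanger of alanine, serine and cysteine, had the highest level per kilobase in its family, at 376 ± 3.18 and 379 ± 17.2 (log2 fold change 0.01, limma, adjusted p = 0.952). The neuronal and glial glutamate carriers were low: SLC1A1 had 98.5 ± 12.1 and 100 ± 9.68 normalized counts, and SLC1A2 had 30.2 ± 3.67 and 41.2 ± 13.1.

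SLC3A2, the heavy chain 4F2hc, had 2548, 2657 and 2596 in siNT and 2534, 2554 and 2471 in siMNX1, with overlap. Its log2 fold change of -0.05 had a narrow interval (-0.15 to 0.06, limma, adjusted p = 0.66). SLC36A1, a lysosomal and surface carrier of proline, glycine and alanine with protons, had 704, 763 and 658 in siNT and 611, 639 and 580 in siMNX1 (log2 fold change -0.21, limma, adjusted p = 0.185). SLC36A4 had 725 ± 77.9 and 836 ± 170, with siMNX1 replicate 3 at 642 and the other siMNX1 libraries at 956 and 911.

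In SLC38, the glutamine and small neutral amino acid carriers, limma called 0 of 8 genes, and the median log2 fold change was -0.10. An unadjusted p of 0.05 or less was found for 1 of the 8, beside 18.4% of all genes. SLC38A3, the system N carrier of glutamine and histidine, had 1355, 1407 and 1452 in siNT and 1667, 1484 and 1740 in siMNX1, with every siMNX1 library higher. Its log2 fold change was 0.21 (95% interval 0.06 to 0.37, limma, adjusted p = 0.142). SLC38A2, the system A carrier known to be induced when amino acids are short, had 1951, 2021 and 1992 in siNT and 1918, 1873 and 1788 in siMNX1, with every siMNX1 library lower and a log2 fold change of -0.10 (95% interval -0.21 to 0.02, limma, adjusted p = 0.367). SLC38A9, the lysosomal arginine sensor upstream of mTORC1, had 205 ± 17.3 and 236 ± 35.9. SLC38A10, SLC38A7 and SLC38A6 had log2 fold changes of -0.10, 0.05 and -0.15. SLC38A11 and SLC38A8 were low, at 64.9 ± 7.88 and 21.7 ± 7.74 in siNT, and had wide intervals of -0.68 to 0.14 and -1.21 to 0.54. An antisense transcript, AC040169.4, covers 23.7% of the exonic bases of SLC38A8.

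Genes near the 4 called members were examined next. Within 250 kb of them lay 7 tested genes for SLC7A9, 0 for SLC16A7, 2 for SLC16A9 and 15 for SLC43A2. Limma called 1 of these, SERPINF2 near SLC43A2, which was higher, where 3.32% of all genes were called in either direction. On either side of SLC43A2 the nearest tested genes were PITPNA and RILP, with log2 fold changes of -0.08 and -0.22. MRLN lies 0.69 kb from SLC16A9 and had 0.17 (limma, adjusted p = 0.551).

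Upstream sequence was searched for 3 motifs on both strands in the 250 bases before the RefSeq start (GRCh38.p14), which was found for 30 of the 38 members. TGATGNAA, the core of the element bound by ATF4 in amino acid response genes, was in 0 of the 30 windows and in 3.19% of 27305 windows of all genes. At so low a share, 30 windows are too few to read anything into its absence. SLC7A11 had no window, and sequence elsewhere in the genes was not searched. CACGTG, the E-box, was in 4 of 30 (SLC16A9, SLC43A1, SLC7A5 and SLC16A11) and in 6.49% of all. TAATTA, the core that homeodomain proteins such as MNX1 prefer, was added after the data were seen and was in 1 of 30, SLC7A9, and in 4.49% of all. The 2 called members whose windows held a match are shown 5′ to 3′, with the matched letters in capitals. A match is only a description of these letters, and only 1 start per gene was searched, which for the called members SLC16A9, SLC43A2 and SLC16A7 lies inside the annotated gene. The first window is chr10:59710080-59710329 and the second chr19:32869768-32870017, both on the minus strand.
SLC16A9: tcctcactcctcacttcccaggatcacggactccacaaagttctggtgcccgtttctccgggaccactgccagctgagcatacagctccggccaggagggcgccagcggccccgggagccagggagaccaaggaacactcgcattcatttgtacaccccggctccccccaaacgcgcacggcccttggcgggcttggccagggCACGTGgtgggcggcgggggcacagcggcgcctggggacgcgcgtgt
SLC7A9: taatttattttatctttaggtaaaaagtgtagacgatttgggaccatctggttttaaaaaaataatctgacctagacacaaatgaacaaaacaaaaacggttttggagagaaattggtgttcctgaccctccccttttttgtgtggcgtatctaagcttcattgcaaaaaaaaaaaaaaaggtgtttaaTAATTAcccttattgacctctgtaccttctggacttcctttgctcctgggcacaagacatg
The SLC16A9 window had 68.4% G or C and 21 CG pairs, and that of SLC7A9 35.6% and 3, where the median of all windows was 58.0% and 11. The E-box of SLC16A9 began 47 bases and the TAATTA of SLC7A9 61 bases before the start.

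Genes of the same pathways were examined in 11 lists with 193 measured genes, 1 of which (SLC38A9, among the genes of mTORC1 sensing) is also a member. Of the 193, limma called 7 higher and 5 lower, beside 1.99% and 1.33% of all genes. For the counts at an unadjusted p of 0.05 that follow, the shares over all genes are 9.81% higher and 8.56% lower. Of 12 measured amino acid transporters outside these families (22 in the list), 0 were higher and 1 lower, with a median of -0.05. It was SLC32A1, which loads GABA and glycine into vesicles, with 586, 523 and 510 normalized counts in siNT and 313, 329 and 322 in siMNX1. The SLC32A1 groups were far apart (log2 fold change -0.74, SE 0.085, limma, adjusted p = 0.00183), and the call held under 13 of 13 settings. Of 13 mitochondrial amino acid, pyruvate and malate carriers, limma called 0, with 2 higher and 4 lower at an unadjusted p of 0.05. MPC2, a subunit of the mitochondrial pyruvate carrier, had 3033 ± 81.3 and 2952 ± 91.1. Of 6 chaperones and regulators 1 was higher, the ubiquitin ligase NEDD4L (2138 ± 89.2 to 2591 ± 98.2, limma, adjusted p = 0.0276), a call that ended in 6 of 6 left-out cases (up to 0.125). Basigin, BSG, named after its values were seen, had 10524 ± 227 and 10695 ± 188.

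Most serine, glycine, proline and one-carbon genes had a fold change below 0. Of 17 measured members 0 were higher and 2 lower, 6 were lower and 0 higher at an unadjusted p of 0.05 (8.56% and 9.81% of all genes), and 16 had a log2 fold change below 0, with a median of -0.10 against -0.0004 over all genes. SHMT1, which moves one-carbon units between serine and glycine, fell from 1593 ± 11.4 to 1298 ± 62.2 (limma, adjusted p = 0.0243). MTHFD1, a folate enzyme, fell from 3472 ± 48.5 to 3005 ± 8.22 (limma, adjusted p = 0.0351). Of the 6 left-out cases only that of siMNX1 replicate 3 kept the SHMT1 call (0.0328, and up to 0.108 in the others), and the MTHFD1 call ended in 6 of 6 left-out cases (0.0606 to 0.145). Of 21 branched-chain amino acid breakdown genes, 2 were higher and 0 lower, 5 and 0 at an unadjusted p of 0.05, with a median of 0.07. ALDH6A1, which acts on valine, rose from 381 ± 8.13 to 540 ± 30.6 (limma, adjusted p = 0.0104), a call that ended without siNT replicate 3 (0.0572). BCAT1, the cytosolic branched-chain transaminase, had 10316, 10284 and 11085 in siNT and 14602, 15636 and 12327 in siMNX1 (limma, adjusted p = 0.0219). The BCAT1 call ended when siNT replicate 1, 2 or 3 or siMNX1 replicate 1 was left out (0.0752, 0.0896, 0.0635 and 0.084).

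Of 18 measured glutamine and glutamate genes 1 was higher and 1 lower, with a median of -0.06. ABAT, which degrades GABA, rose from 2965 ± 54.2 to 3731 ± 281 (limma, adjusted p = 0.019), and ASS1, the argininosuccinate synthase that rebuilds arginine, fell from 431 ± 20.1 to 313 ± 25.0 (limma, adjusted p = 0.0277). The ABAT call was kept in 2 of 6 left-out cases and the ASS1 call in 1, with adjusted p up to 0.0809 for ABAT and 0.129 for ASS1, both without siNT replicate 3. Of 19 amino acid response and ATF4 target genes 1 was higher and 0 lower, with a median of 0.02. It was PPP1R15A, the phosphatase subunit that reverses the integrated stress response (271 ± 10.4 to 399 ± 35.3, limma, adjusted p = 0.0165), whose call was kept in 2 of 6 left-out cases, those of siMNX1 replicates 2 and 3. Limma called 0 of 20 aminoacyl-tRNA synthetases, with 3 higher and 0 lower at an unadjusted p of 0.05, and AARS1 had 6891 ± 217 and 7646 ± 202 (limma, adjusted p = 0.106).

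Of 33 genes of amino acid sensing by mTORC1, 1 was higher and 0 lower, with a median of -0.01. SESN3, a sestrin that restrains mTORC1, rose from 1310 ± 31.8 to 1730 ± 124 (limma, adjusted p = 0.0112), a call that ended without siNT replicate 3 (0.0635). Of 15 cystine and glutathione genes, 1 was higher and 0 lower. GPX4, which reduces lipid peroxides with glutathione, rose from 2662 ± 86.2 to 3108 ± 73.9 (limma, adjusted p = 0.0402). The GPX4 call was lost in 6 of 6 left-out cases (limma, adjusted p from 0.0602 to 0.155), with equal totals (0.0507) and with a replicate block. Of 19 measured lactate, pyruvate and ketone body genes, 0 were higher and 1 lower, with a median of -0.09. LDHB, a lactate dehydrogenase subunit, had 773, 768 and 785 in siNT and 567, 469 and 520 in siMNX1, far apart (log2 fold change -0.58, limma, adjusted p = 0.00549), and its call held under 13 of 13 settings. LDHA, named after its values were seen, had 4561, 3688 and 3091 in siNT and 2826, 2140 and 2690 in siMNX1, all siMNX1 libraries lower and siNT replicate 1 far above the others of its group, and did not pass (log2 fold change -0.56, limma, adjusted p = 0.0622).

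**Figure D4:**
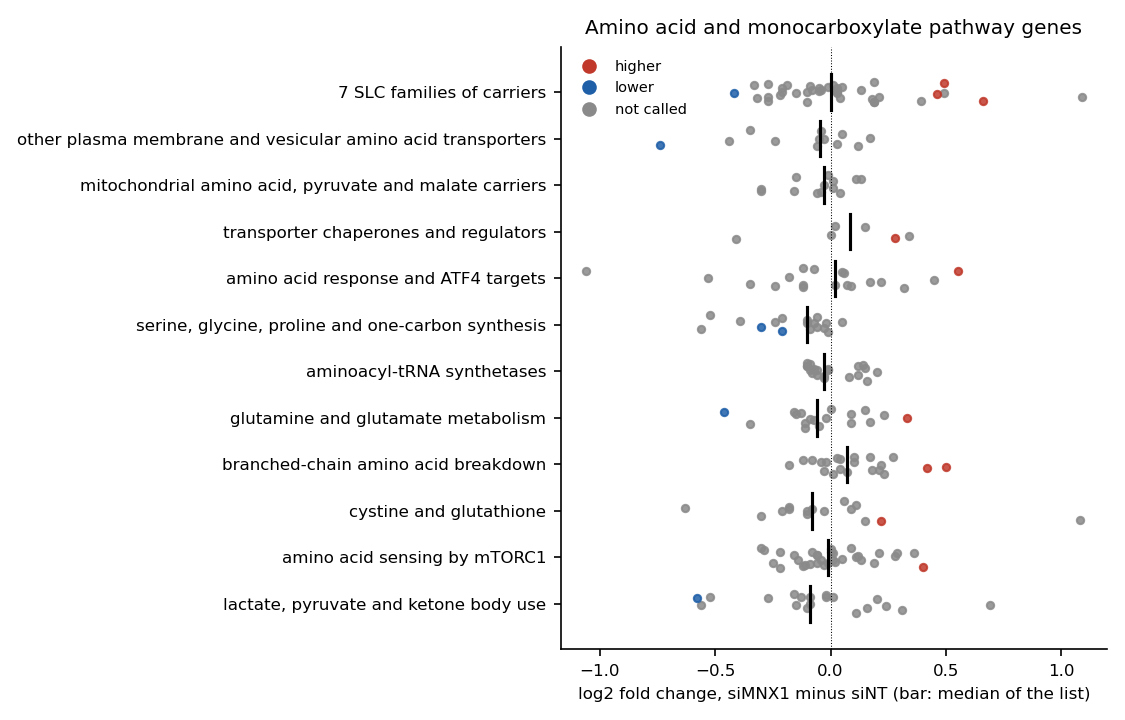
Log2 fold change (x axis, siMNX1 minus siNT) of each measured gene in the 38 transporters and the 11 pathway lists (rows), with a dot per gene (red higher, blue lower, grey not called by limma) and a black bar at the median of each row. Medians lie between -0.10 and 0.08, and the serine, glycine, proline and one-carbon row has 16 of 17 dots below 0.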

How the data were processed

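RNA from 6 libraries was compared, 3 siNT and 3 siMNX1, grouped and numbered by their titles. Values are a normalized count signal that the authors deposited for 16792 genes. The submitters' processing notes name DESeq2 1.26.0 and DESeq, RSEM 1.3.1, STAR 2.7.6a, R 3.6.3 and the build GRCh38, without saying what each was used for. Annotation, low-value filter and strand setting: not given in the sources used here. Of values under 10, 24.9% to 46.9% lay within 0.02 of a whole multiple of the best step, where an even spread would give 4%. Most values in each library did not, so reads were not recovered, depth is unknown and no count model was fitted.

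Values were analysed as log2(value + 1) with limma 3.58.1 in R 4.3.3 (variance trend), with p-values adjusted over all genes and a threshold of 0.05. The procedure was tested on simulated data, with independent noise drawn from the variances of its own fit. Such data cannot check departures from that model, such as siMNX1 replicates that lie apart on the second principal component. Recovery rates of that test are not given here, so genes not called are not shown to be unchanged. Positions and exon lengths came from GENCODE 29 (GRCh38) and upstream sequence from RefSeq. Factors by the trimmed mean of M values (TMM) were computed for an alternative, and Python 3.11.15 with pandas 2.3.3 and matplotlib 3.10.9 was used for tables and plots. Members, lists and tests were chosen with earlier results of these data known. Named genes were MNX1, PERCC1, SST, members past the threshold or with an unadjusted p of 0.05 or less, the member of highest level per kilobase in each family, and up to 3 called genes (or the gene of highest level) per list. The remaining members are named only to account for each of them, and list genes outside the rule are said to be so. Alternatives were pseudocounts of 0.5 and 5, a minimum mean of 50, TMM scaling, equal totals, a robust variance model, a replicate block and each library left out. For 1 member found by the rule, results are not reported here, and it is in no count of members, though it stayed in the fit over all genes.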

Additional observations from a re-analysis of the deposited data

How the results depend on the processing

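Counts moved when a library was left out and with a replicate block. Over the 6 left-out cases, genes called numbered 133 to 257 higher and 64 to 179 lower over all genes (335 and 223 with all libraries), 1 to 3 higher and 0 to 1 lower among the members (3 and 1 with all libraries), and 0 to 6 higher and 2 to 3 lower in the pathway lists. Fewer samples alone can lower such counts, and their part in these was not tested. With a replicate block, 162 genes were higher and 75 lower over all genes, 2 and 0 among the members (SLC43A2 and SLC16A7), and 2 and 2 in the lists. Those of the lists were ALDH6A1 and SESN3, higher, and SLC32A1 and LDHB, lower, and the other list genes called with all libraries lost their call. Same-numbered libraries did not deviate together (r = -0.0135, -0.00855 and -0.0377), so the numbers are not taken as pairs. Members called lower numbered 2 with a pseudocount of 5, with a minimum mean of 50 and with a robust variance model, since SLC7A7 then passed. TMM scaling, equal totals and a pseudocount of 0.5 left the members' counts at 3 and 1. Log2 fold changes near 0, none of them called, changed sign over the left-out cases for SLC1A4 (-0.02 to 0.05, below 0 without siMNX1 replicate 1 or 2), SLC7A8 (-0.01 to 0.05, below 0 without siNT replicate 1) and SLC16A1 (-0.10 to 0.02, above 0 without siMNX1 replicate 3), and the cause was not tested. The highest member per kilobase was the same in 4 of 7 families with the longest transcript as length. Where the longest transcript was used, SLC38A10, SLC43A3 and SLC36A4 led their families in place of SLC38A3, SLC43A2 and SLC36A1. Depth is unknown, so its part in the wide intervals of the 5 members with a mean under 50 was not tested.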
